A study of Mus musculus with 53 samples.

Results

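The 14 brainstem libraries of this mouse series separated by the level of one gene, Tcf7l2, and are compared here as 5 Tcf7l2-high and 9 Tcf7l2-low libraries. The members were chosen by the measured level of Tcf7l2. A library was placed in the high group when Tcf7l2 exceeded 50 CPM (counts of a gene per 1000000 counts of the library) and in the low group when it fell below that level. These libraries belong to a set of 53, made from brainstem, cerebellum, cortex and striatum of 14 male mice aged 74 to 77 weeks. The MJD84.2 mice, called SCA3 below, were hemizygous for a human ataxin-3 gene (ATXN3) with an expanded CAG repeat under its own human promoter, and the wild-type mice were C57BL/6. No mouse received a treatment, and 1 piece of brainstem from each mouse gave 1 library. The high group held 2 wild-type and 3 SCA3 libraries, and the low group held 6 wild-type and 3 SCA3 libraries. The brainstem libraries held 31.7 to 72.4 M (1000000) counts in genes of the table.

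Tcf7l2 encodes a transcription factor that acts with β-catenin at the end of the Wnt pathway. In the adult mouse brain it is strongest in glutamatergic neurons of the thalamus and also marks the habenula and parts of the dorsal midbrain, while newly formed oligodendrocytes carry it as well. The thalamus lies directly in front of the midbrain, and the midbrain directly in front of the pons and medulla, so that the place of the front cut decides which of these neurons a brainstem dissection holds. In the low libraries, Tcf7l2 was lowest at 4.93 CPM, had a median of 6.52 CPM and was highest at 16.4 CPM in wild-type mouse 9083375, the library just below the limit. In the high libraries it was 94.4 CPM in SCA3 mouse 7267056, just above the limit, then 123 CPM in wild-type 7267055, 147 CPM in SCA3 9083514, 161 CPM in wild-type 9083373 and 166 CPM in SCA3 9083515. These levels chose the groups and are given as a description only. For the same reason every difference between the high and the low libraries of brainstem is described by its values, without a test. It is given as a log2 fold change with its standard error from a fit that included genotype, together with whether the libraries of the groups overlapped. In whole tissue, more cells of a type and more RNA per cell cannot be told apart.

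**Figure D1:**
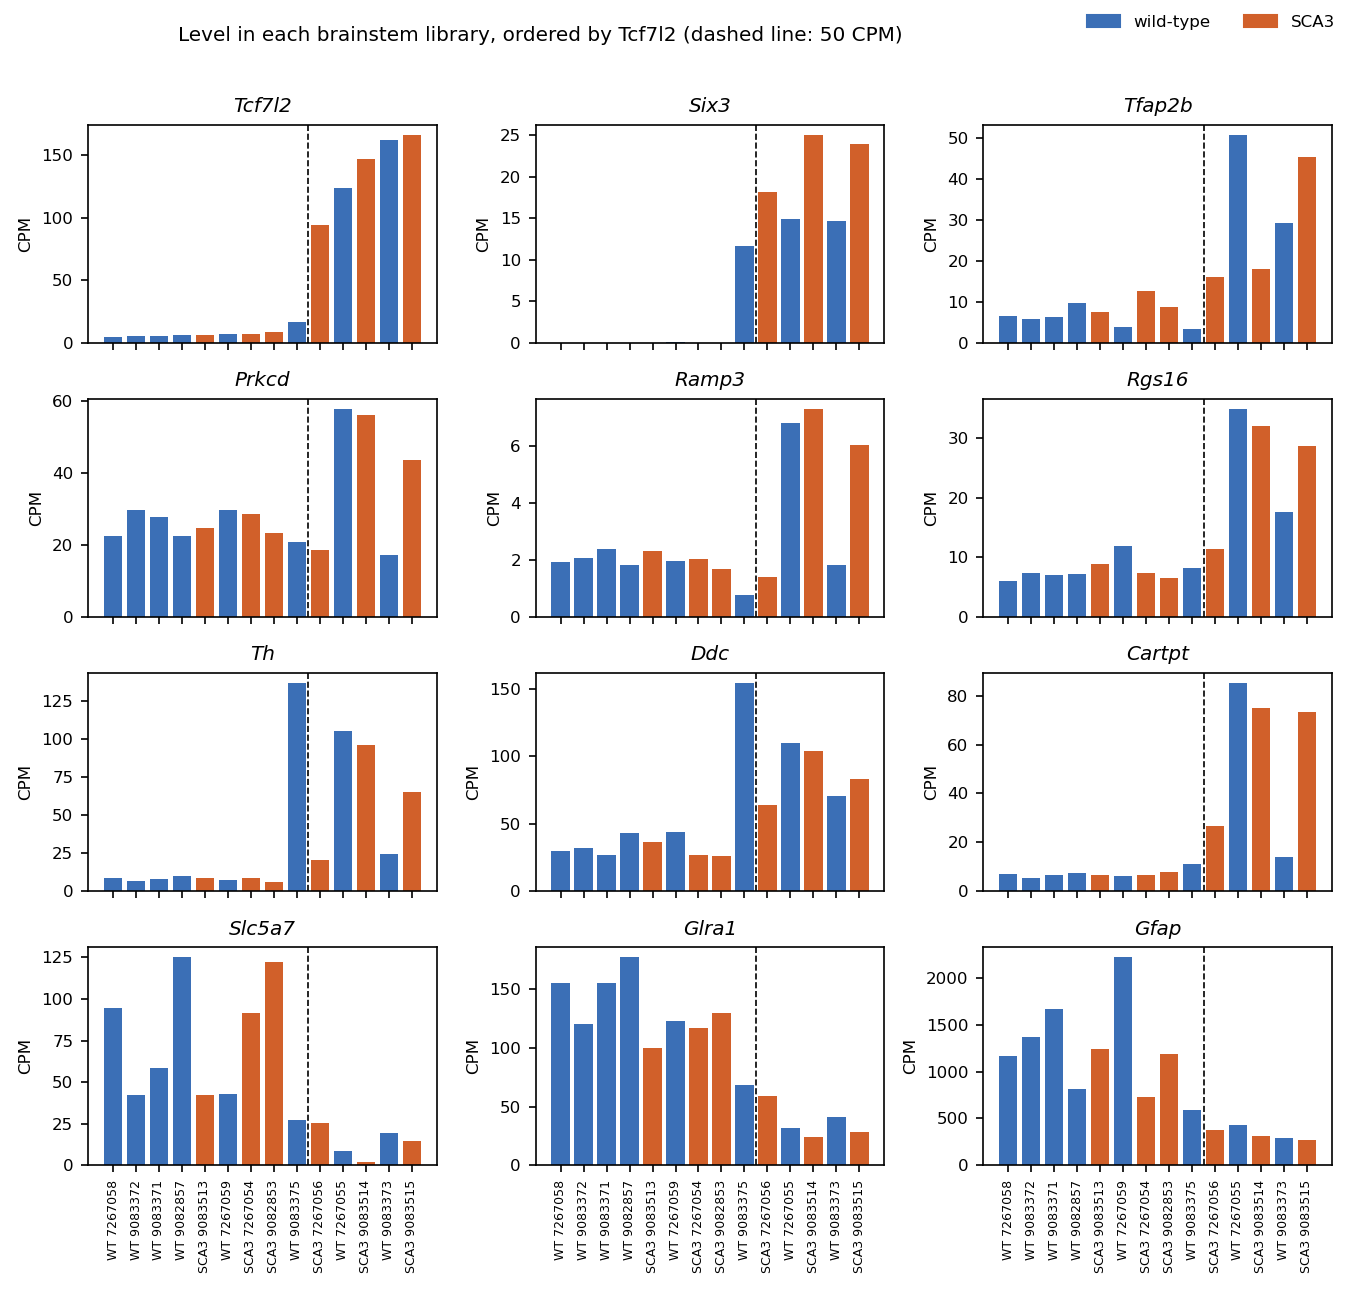
Level (CPM, linear axes from 0) of 12 genes in each of the 14 brainstem libraries, ordered from left to right by Tcf7l2, with wild-type libraries in blue and SCA3 libraries in orange, and the dashed line between the low and the high group. Tcf7l2 jumped from 16.4 to 94.4 CPM at the line, whereas Prkcd, Ramp3 and Rgs16 were clearly raised in 3 of the 5 high libraries, and Th and Ddc were highest in low library wild-type 9083375.

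Of the other thalamic markers measured, 3 of 14 were higher in every high than in every low library, so the groups are named after Tcf7l2 and not after a tissue. Of 18 thalamic markers listed, 14 were in the table, which leaves out genes averaging at most 4 CPM over the series, and Gbx2, Tnnt1, Slitrk6 and Shox2 were not among them. The log2 fold change was above 0 for 12 of the 14 with a median of 0.35, beside a median of -0.01 and 48.5% above 0 over all 12371 genes compared. Libraries of the groups did not overlap for 4 of the 14. Over all genes, 10% did not overlap. The 4 were Lef1, which binds the same DNA core as Tcf7l2, Ntng1, a membrane-anchored netrin of thalamic axons, Adarb1, an RNA-editing enzyme, and Nexn. Nexn, an actin-binding protein, was lower in the high libraries. The summed level of the 14 markers was 1335 to 1746 CPM in the high and 1173 to 1476 CPM in the low libraries.

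Prkcd, a protein kinase of thalamic relay neurons, was 57.7 CPM in wild-type 7267055, 56.1 CPM in SCA3 9083514 and 43.6 CPM in SCA3 9083515. In the other high libraries it was 18.7 CPM in SCA3 7267056 and 17.2 CPM in wild-type 9083373, both below the lowest of the low libraries, which ran from 20.9 to 29.7 CPM with a median of 24.7 CPM. Ramp3, a receptor-modifying protein, split the high libraries the same way. It was 6.83, 7.31 and 6.05 CPM in the first 3 of these libraries and 1.41 and 1.82 CPM in the other two, against 0.780 to 2.38 CPM in the low group. Rgs16, a regulator of G protein signalling, was 34.8, 32.1 and 28.7 CPM in the same 3, 17.6 CPM in wild-type 9083373 and 11.3 CPM in SCA3 7267056, and the low group reached 12.0 CPM. Synpo2, an actin-binding protein, gave 18.6, 21.0 and 16.3 CPM in the 3 libraries and 8.29 and 6.07 CPM in the other two, and the last 3 of these values lay within the low range of 6.01 to 18 CPM. Wild-type 9083373, with the second-highest Tcf7l2 of the series' brainstem libraries, thus held less Prkcd than any low library. Rora, a nuclear receptor, differed by 0.36 ± 0.09 (log2, standard error), Slc17a6, the vesicular glutamate transporter of thalamus and brainstem, by 0.30 ± 0.11, and Plekhg1 by -0.10 ± 0.16. All 3 overlapped between the groups.

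Striatal libraries of the same series gave a second view of how these markers travel with Tcf7l2. Tcf7l2 lay between 5.84 and 9.06 CPM in 9 of 13 striatal libraries. The striatal libraries of wild-type 7267058 and wild-type 7267059, which are both in the low group by their brainstem, held 106 and 116 CPM, within the range of the high brainstem libraries. In them Prkcd was 297 and 837 CPM, Rora 303 and 472 CPM, Plekhg1 216 and 358 CPM, and Synpo2 93.1 and 150 CPM. Prkcd was also 70.3, 100 and 181 CPM in 3 striatal libraries with little Tcf7l2, whereas their Plekhg1 was at most 27.8 CPM. At like levels of Tcf7l2, Prkcd in the brainstem libraries was at most 57.7 CPM and Plekhg1 at most 68.8 CPM. The remaining striatal libraries, SCA3 9082853 and wild-type 9083373, lay between with 32.6 and 34.1 CPM of Tcf7l2 and held 22.8 and 104 CPM of Prkcd. The ratio of Prkcd to Tcf7l2 was 0.698 and 3.06 in these, 2.80 and 7.24 in wild-type 7267058 and wild-type 7267059, and 0.106 to 0.469 in the high brainstem libraries.

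**Figure D2:**
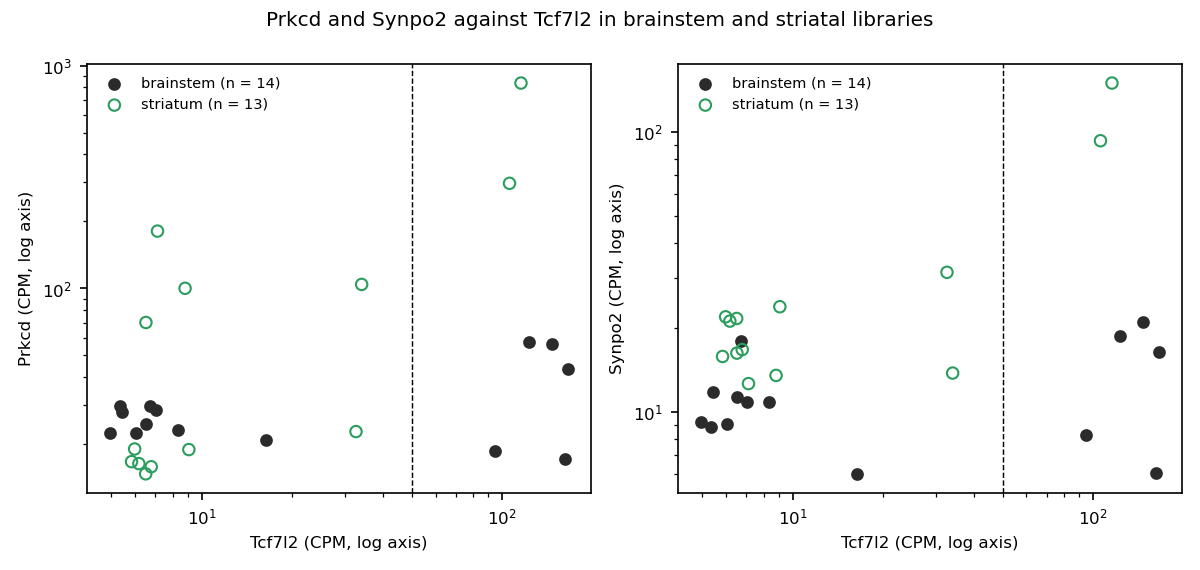
Prkcd (left) and Synpo2 (right) against Tcf7l2, all in CPM on log axes, in the 14 brainstem libraries (filled points) and the 13 striatal libraries (open green circles), with the dashed line at 50 CPM of Tcf7l2. The striatal libraries past the line carried Prkcd of 297 and 837 CPM, far above the 17.2 to 57.7 CPM of the brainstem libraries past it.

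Across all genes other than Tcf7l2, 34 were at least 2-fold higher in the high libraries without overlap (0.275% of 12371 genes) and 42 were at least 2-fold lower without overlap (0.34%). Without the size limit, 682 genes were higher without overlap (5.51%) and 560 lower (4.53%). Together these 76 genes were 0.614% of those compared. The low library wild-type 9083375 was the nearest of its group to the high group for 25 of the 34 higher and 30 of the 42 lower genes. Without it the 2-fold count was 63 higher and 82 lower. Among the high libraries, SCA3 7267056 was the nearest to the low group for 20 of the 34 and 23 of the 42. The 15 genes with the largest difference in each direction lie on many chromosomes and are described next.

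**Figure D3:**
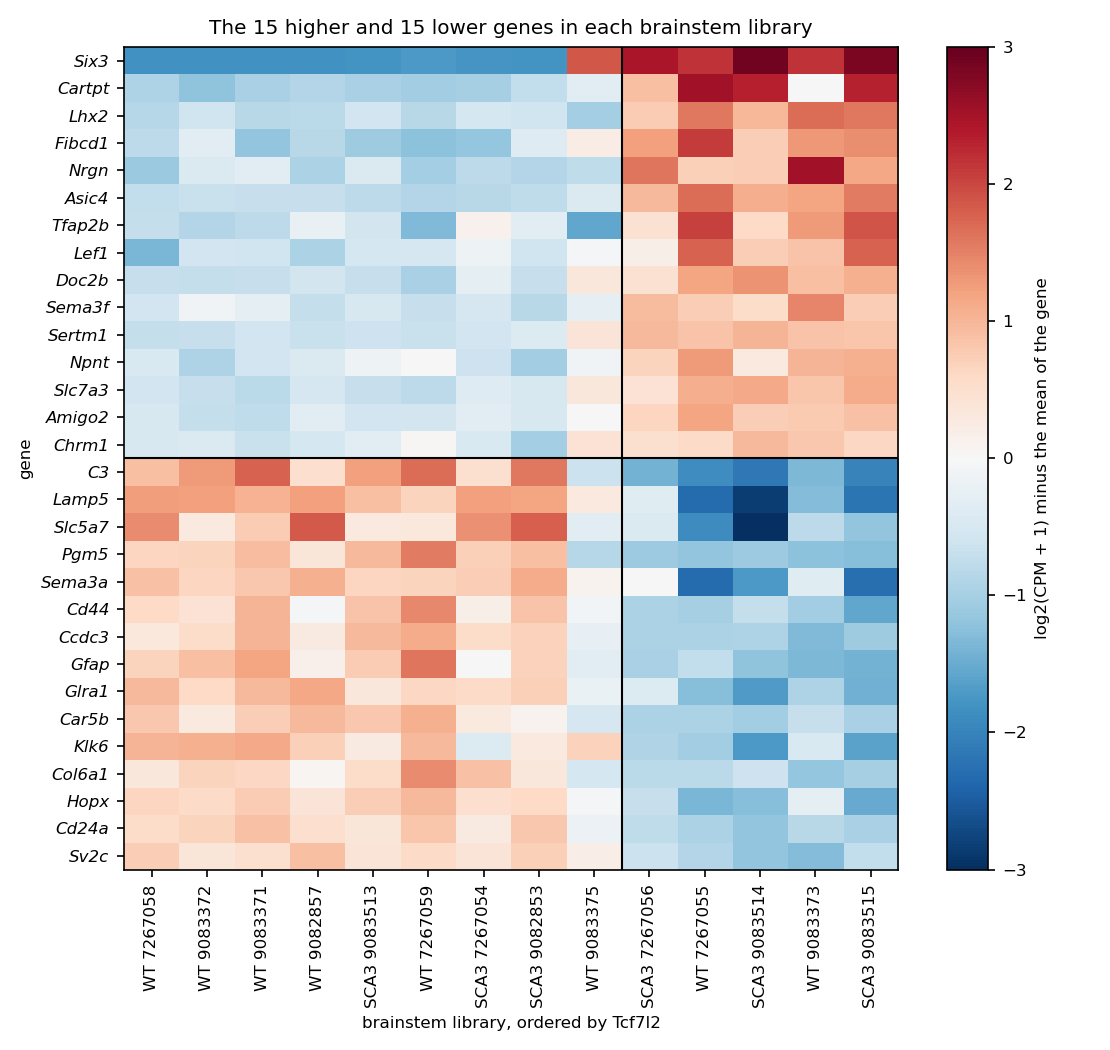
Heat map of the 15 genes with the largest higher and the 15 with the largest lower values among those whose groups did not overlap, with 1 row a gene and 1 column a brainstem library ordered by Tcf7l2. Colour gives log2(CPM + 1) minus the mean of the gene over the 14 libraries, the vertical line parts the low from the high group, and wild-type 9083375, the last low column, has colours between the groups for many genes.

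The largest fitted log2 difference of the 15 higher genes was that of Six3 (chr17:85613608-85626191 in GRCm38), a homeodomain factor of the developing forebrain and eye. Its reads numbered 0 to 2 in 8 of the 9 low libraries, and 571 (11.7 CPM) in the remaining one, wild-type 9083375. In the high libraries it was 18.2 CPM in SCA3 7267056, 14.9 CPM in wild-type 7267055, 25 CPM in SCA3 9083514, 14.7 CPM in wild-type 9083373 and 24.0 CPM in SCA3 9083515. Every high library thus lay above every low library, and 1 low library lay much nearer to the high group than to its own. Its size is not given, since the fitted log2 value ran from 2.66 to 10.1 between settings. The exons of Six3 share 106 bases with the antisense Six3os1 and 168 with Gm28528, and the libraries kept no strand. The gene reached 47.9 to 112 CPM in striatum and 3.95 to 51.0 CPM in cortex. Six3 was 1 of 5 measured genes of a list for prethalamus and forebrain GABA neurons. The other 4 were below 0 and overlapped, from Ecel1 (-1.43 ± 0.21) to Pvalb (-0.06 ± 0.16), and the list median was -0.39.

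Tfap2b (chr1:19208908-19238845), an AP-2 factor of the dorsal midbrain and cerebellum, was 16.2 CPM in SCA3 7267056, 50.8 CPM in wild-type 7267055, 18 CPM in SCA3 9083514, 29.4 CPM in wild-type 9083373 and 45.5 CPM in SCA3 9083515. The low libraries ran from 3.26 to 12.7 CPM with a median of 6.64 CPM, a difference of 2.12 ± 0.33 on the log2 scale. Here wild-type 9083375 was the lowest library of all, in contrast to its place for Six3. Tfap2b was 53.2 to 79.9 CPM in cerebellum and at most 0.509 CPM in striatum, including the Tcf7l2-rich striatal libraries. Lhx2 (chr2:38339271-38369737), a LIM homeodomain factor, was 7.32 to 14.8 CPM in the high and 1.42 to 2.42 CPM in the low libraries (2.54 ± 0.19). Lef1 (chr3:131110297-131224357) was 9.41, 30.6, 14.3, 15.6 and 30.6 CPM in the high libraries, in the order of Tcf7l2, and 2.57 to 7.92 CPM in the low ones (1.90 ± 0.30). All 4 of these transcription factors were separated between the groups, and none followed the order of Tcf7l2 inside the high group.

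Cartpt (chr13:99898483-99910179), the precursor of the CART neuropeptide, differed most after Six3, by 2.89 ± 0.34. It was 85.1 CPM in wild-type 7267055, 74.9 CPM in SCA3 9083514 and 73.3 CPM in SCA3 9083515, but only 26.8 CPM in SCA3 7267056 and 13.8 CPM in wild-type 9083373. The low group ran from 5.49 to 11.1 CPM with a median of 6.65 CPM. The 3 high libraries with the most Cartpt were also the 3 with the most Prkcd, Ramp3 and Rgs16, although Rgs16 in wild-type 9083373 exceeded every low library too. Nrgn, a calmodulin-binding protein of forebrain dendrites, had another order, with 236 CPM in wild-type 9083373, 126 CPM in SCA3 7267056 and 67.6 to 91.4 CPM in the other 3, against 18.3 to 31.9 CPM in the low group. Of 13 measured genes of a list for glutamatergic neurons of cortex and hippocampus, 7 were above 0 and 6 below, with a median of 0.01.

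The remaining higher genes have several roles. Asic4, of the acid-sensing channel family, was 31.0 to 51.8 CPM against 7.89 to 11.2 CPM (2.18 ± 0.12). Doc2b, a calcium sensor of vesicle release, was 29.3 to 55.4 CPM against 10.3 to 26.8 CPM (1.58 ± 0.21), and the low maximum was again wild-type 9083375. Sema3f, a secreted axon repellent, was 26.9 to 51.7 CPM against 9.62 to 16.7 CPM (1.52 ± 0.15). Fibcd1, a chitin-binding receptor, Sertm1, Npnt, a matrix protein, Slc7a3, a transporter of basic amino acids, Amigo2, an adhesion protein, and Chrm1, the M1 muscarinic receptor, differed by 1.37 to 2.39. Chrm1 stood at the edge, with 5.60 CPM in the lowest high and 5.40 CPM in the highest low library.

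The 15 lower genes included Slc5a7 and Glra1. Slc5a7 (chr17:54273590-54299038), the choline transporter that feeds acetylcholine synthesis, was 25.2 CPM in SCA3 7267056, 8.59 CPM in wild-type 7267055, 2.18 CPM in SCA3 9083514, 19.6 CPM in wild-type 9083373 and 14.6 CPM in SCA3 9083515. The low group ran from 27.3 CPM, in wild-type 9083375, to 125 CPM with a median of 58.6 CPM, so the groups were separated by a small gap (-2.42 ± 0.48). Chat, the enzyme that makes acetylcholine, differed as much (-2.40 ± 0.47) but overlapped, at 0.777 to 7.65 CPM against 6.18 to 32.4 CPM. Ache, the enzyme that breaks acetylcholine down and the last of the 3 measured genes of the motor and cholinergic list, overlapped as well (-0.23 ± 0.08). Glra1 (chr11:55514239-55608198), the glycine receptor subunit of spinal cord and hindbrain, was 59.1, 32, 23.7, 41.2 and 28.4 CPM in the high libraries in the order of Tcf7l2. Its low libraries had a minimum of 68.8 CPM, again wild-type 9083375, a median of 123 CPM and a maximum of 177 CPM (-1.77 ± 0.23). Glra1 was at most 19.5 CPM in any library of the other 3 regions.

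The other lower genes are known from several cell types. Gfap (chr11:102887336-102897200), the intermediate filament of white matter and surface astrocytes, was 371, 434, 315, 287 and 273 CPM in the high libraries and 587 to 2218 CPM with a median of 1184 CPM in the low ones (-1.80 ± 0.26). C3 (chr17:57203967-57228136), the central complement component, was 3.52 to 6.86 CPM against 11.7 to 67.2 CPM (-3.08 ± 0.34), the largest lower difference. Cd44, a hyaluronan receptor, Hopx and Pgm5 differed by -1.91, -1.57 and -2.15. Klk6, a serine protease of oligodendrocytes, was 11.9 to 29.8 CPM against 30.7 to 92.3 CPM. Lamp5, a lysosome-associated membrane protein of some GABA neurons, was 13.1 to 78.3 CPM against 124 to 245 CPM, and Sv2c, a synaptic vesicle protein, 50.5 to 79.1 CPM against 143 to 237 CPM. Sema3a, Ccdc3, Car5b, Col6a1 and Cd24a differed by -1.96 to -1.54. Wild-type 9083375 was the low library nearest to the high group for 14 of the 15 lower genes, and the exception was Klk6, whose lowest low value was in SCA3 7267054.

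Tcf7l2 and Lef1 bind DNA through the same core, written ATCAAAG on one strand and CTTTGAT on the other. Both spellings were searched for in the RefSeq promoter windows of GRCm38.p6, which run from 250 bases before to 50 after an annotated start. Of 9473 compared genes with a window, 2.95% held the core. None of the 23 higher and none of the 27 lower 2-fold genes with a window held it, which says only that these letters are not in these windows. The 250 bases before the start are shown for Six3, with 0 to 2 reads in 8 low libraries, and for Gfap, the most abundant of the 15 lower genes, all in lower case because the core is absent. The first lies at chr17:85620584-85620833 on the plus strand, the second at chr11:102897201-102897450 on the minus strand, and both read 5′ to 3′.
Six3: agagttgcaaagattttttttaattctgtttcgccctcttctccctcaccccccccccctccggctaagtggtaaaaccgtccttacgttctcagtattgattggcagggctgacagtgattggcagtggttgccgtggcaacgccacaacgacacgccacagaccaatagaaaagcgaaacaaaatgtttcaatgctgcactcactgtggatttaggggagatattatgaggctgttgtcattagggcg
Gfap: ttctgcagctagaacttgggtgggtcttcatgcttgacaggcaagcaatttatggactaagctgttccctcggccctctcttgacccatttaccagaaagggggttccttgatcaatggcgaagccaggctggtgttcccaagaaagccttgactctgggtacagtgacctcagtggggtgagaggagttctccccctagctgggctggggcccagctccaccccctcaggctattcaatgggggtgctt

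Gene lists for the regions and cell types that a brainstem dissection could hold were read against the share of all genes, of which 5.51% were higher and 4.53% lower without overlap. Lists for blood, noradrenergic neurons and Hox genes had no gene in the table. All 3 measured midbrain transcription factors were above 0, with Tfap2b separated and En2 and Gata2 overlapping (1.46 ± 0.40 and 0.71 ± 0.19). En2 was highest in wild-type 9083373 (31.2 CPM), and the highest low value of Tfap2b was in SCA3 7267054 (12.7 CPM). Cerebellar markers, given below, were raised in the same 2 libraries. The highest En2 of the low group was in wild-type 9083375 (13.9 CPM), and the highest Tfap2b of all in wild-type 7267055 (50.8 CPM). All 7 measured genes of midbrain dopamine neurons were above 0 with a median of 1.1, and none was separated. The smallest of the 7 differences were those of Ret (0.01 ± 0.28) and Aldh1a1 (0.09 ± 0.19). Th, the rate-limiting enzyme of dopamine synthesis, was 20.1, 105, 95.8, 24.3 and 65.3 CPM in the high libraries in the order of Tcf7l2, and 6.23 to 9.85 CPM in 8 low libraries. The exception was wild-type 9083375, whose 136 CPM of Th was the highest of all 14 libraries. Ddc, the next enzyme of that pathway, was 154 CPM there against 26.4 to 43.6 CPM in the other low and 63.9 to 110 CPM in the high libraries. The vesicular transporter Slc18a2 was 226 CPM there against 83.4 to 126 CPM in the high group.

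The 3 measured genes of the hypothalamic list were all higher without overlap. Beside Cartpt these were Baiap3, a protein of dense-core vesicle traffic (0.83 ± 0.13), and Tmem130 (0.51 ± 0.09). The defining peptides of the hypothalamus, among them Oxt, Avp, Hcrt, Pmch, Pomc and Agrp, were not in the table. Habenular genes were barely covered, with 2 of 9 measured, both above 0 and overlapping. Of the Purkinje cell list, Rgs8 was higher without overlap (1.08 ± 0.16), and Car8 was 119 CPM in high library wild-type 9083373 and 66.1 CPM in low library SCA3 7267054 but at most 24.3 CPM in the other 12. Itpr1, the calcium channel of Purkinje cell stores, was likewise highest in those libraries, at 484 and 325 CPM. Of the granule cell list, Cbln3, a synapse-organising protein, was 39.1 and 70.9 CPM in the same libraries and at most 5.97 CPM in the other 12. Neurod1, a transcription factor, was 16.2 and 19.0 CPM against at most 4.42 CPM. Zic2 was also highest in these libraries, at 36.4 and 27.5 CPM, but reached 26.5 CPM in wild-type 9083375. The list had 7 measured genes, and the rest did not mark both libraries. Etv1 was lowest of all in wild-type 9083373 (58.3 CPM), and Rab37 was lower in the high group without overlap (-0.78 ± 0.09). What these cerebellar markers bring to the other values was not tested. Calb1, a calcium-binding protein of the Purkinje cell list, was instead highest in low library wild-type 7267059, at 199 CPM.

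**Figure D4:**
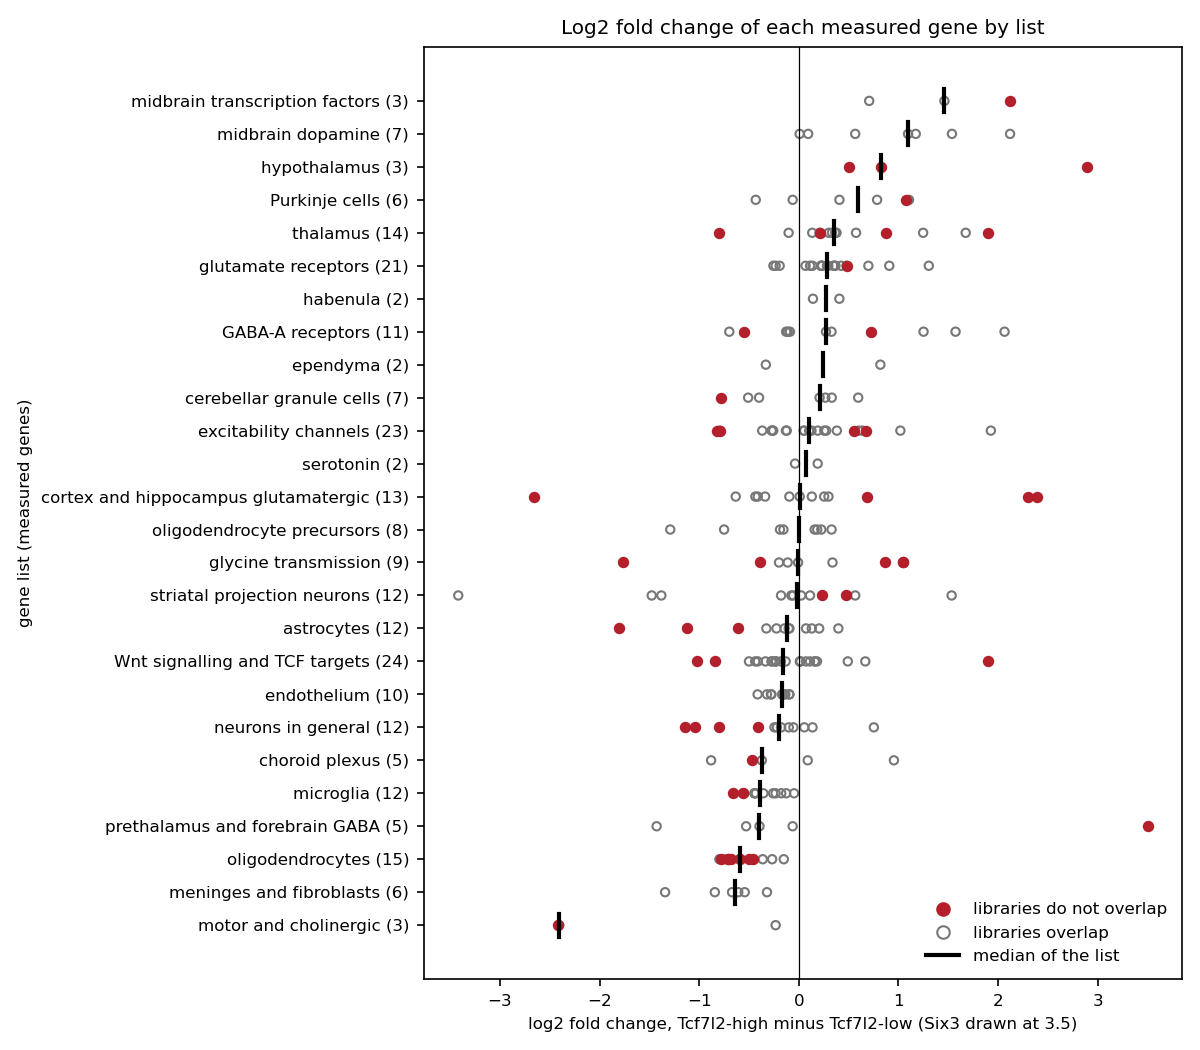
Log2 fold change, Tcf7l2-high minus Tcf7l2-low, of each measured gene (points) in the 26 lists with a measured gene, ordered by the list median (black bars), with the number of measured genes in brackets. Red points are genes whose libraries did not overlap, open points overlap, and Six3 is drawn at 3.5. The midbrain lists sit to the right of 0, whereas all measured oligodendrocyte, microglial, endothelial and meningeal genes lie to its left.

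Genes of inhibition showed both directions. Gad1 and Gad2, the enzymes that make GABA, were higher without overlap, at 399 to 606 CPM against 187 to 382 CPM (1.05 ± 0.15) and at 390 to 568 CPM against 162 to 377 CPM (1.04 ± 0.18). Of the glycine list, 3 of 9 genes were higher and 2 were lower without overlap. Glra2, the other measured glycine receptor α subunit, was higher (0.86 ± 0.09), opposite to Glra1, and Slc6a9, the glial glycine transporter, was lower (-0.39 ± 0.06). Of 11 measured GABA-A receptor subunit genes, 6 were above 0 with a list median of 0.27, and 1 was higher and 1 lower without overlap. Of 21 glutamate receptor genes, 18 were above 0 with a median of 0.28, and only Grik2, a kainate receptor, did not overlap (0.48 ± 0.07).

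Of 12 genes of neurons in general, 3 were above 0 and 9 below, and 4 were lower without overlap. The neurofilaments Nefl, Nefm and Nefh, which set axon calibre, differed by -0.80 ± 0.11, -1.14 ± 0.12 and -1.04 ± 0.13, all without overlap. Of 23 excitability channel genes, 14 were above 0. The potassium channel Kcna1 (-0.79 ± 0.12) and the sodium channel subunit Scn4b (-0.82 ± 0.11) were lower without overlap, and the calcium channel Cacna1i (0.55 ± 0.08) and the potassium channel Kcnc2 (0.67 ± 0.11) were higher. All 15 oligodendrocyte genes were below 0 with a median of -0.59, and 7 did not overlap. Mog, a protein of the outer myelin layer, was 111 to 142 CPM against 166 to 208 CPM, and the summed oligodendrocyte level was 10159 to 11997 CPM against 14287 to 22720 CPM. The synaptic Snap25 was lower without overlap (-0.41 ± 0.08), while the synaptic Syt1 was above 0 but overlapped (0.75 ± 0.14).

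All 12 microglial genes were below 0 with a median of -0.39, of which C1qa and Tyrobp did not overlap. Endothelial (10 of 10) and meningeal genes (6 of 6) were also all below 0, with medians of -0.17 and -0.64, but none was separated. The summed meningeal level was 342 to 710 CPM in the high and 357 to 2324 CPM in the low libraries. Of 12 astrocyte genes, 8 were below 0, and Gfap, S100b (-1.12 ± 0.10) and Aqp4 did not overlap. Of 24 Wnt genes, 11 were above 0 with a median of -0.16. Lef1 was higher without overlap, and the secreted Wnt regulators Sfrp1 (-1.02 ± 0.14) and Dkk3 (-0.84 ± 0.12) were lower.

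The labels of the mice and libraries were compared between the groups as measures that the choice did not use. The RNA integrity number (RIN, an index of RNA degradation) was 7.72 ± 0.383 (SD, n = 5) in the high and 7.33 ± 0.442 (SD, n = 9) in the low libraries. The difference in means was not significant (two-sided exact permutation test, p = 0.138, adjusted p = 0.348 over 4 measures). Within the wild-type libraries the difference was 0.15 (exact permutation p = 0.75) and within SCA3 0.367 (exact permutation p = 0.20). With 3 against 3 SCA3 libraries this two-sided test could not reach a p of 0.05. Without wild-type 7267055, the high library with the lowest RIN, the difference was 0.542 (exact permutation p = 0.0434, unadjusted). Bodyweight was 4.52 g lower by mean in the high group (35.2 ± 7.30 g against 39.7 ± 7.86 g, exact permutation p = 0.313, adjusted p = 0.348). Age, at 74.6 against 75.3 weeks, and the library total, at 61.8 against 53.7 M counts, gave exact permutation p of 0.240 and 0.348. Genotype was not spread evenly, with SCA3 in 3 of 5 high and 3 of 9 low libraries, an imbalance that did not pass the test (Fisher's exact test, two-sided p = 0.580).

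Cortex, cerebellum and striatum of the same mice were then compared, with 5 libraries from high and 8 from low mice in each, to ask whether the split belonged to the mouse or to the piece of brainstem. In cortex edgeR's likelihood ratio test with Benjamini-Hochberg adjustment called 0 of 12372 genes (0.0%), with 181 at an unadjusted p below 0.05, 1 by DESeq2 and 0 by the quasi-likelihood test. In striatum it called 0 genes (0.0%), with 400 at an unadjusted p below 0.05, and the other two tools also called 0. In cerebellum it called 1 gene (0.00808%), with 413 at an unadjusted p below 0.05. This was A230050P20Rik, lower in the high mice by 0.24 on the log2 scale (adjusted p = 0.0229), which the quasi-likelihood test did not call (adjusted p = 0.224). Leaving out 1 mouse gave 0 to 4 genes in cortex, where the 4 came without wild-type 9083373 and 1 without SCA3 7267056, and 0 to 3 in cerebellum, where the 3 came without wild-type 7267059 and 0 without any of 9 other mice. Of the 76 genes that differed 2-fold in brainstem, 22 had the same direction in cortex, 29 in cerebellum and 46 in striatum. The median log2 fold change of the 34 higher genes was -0.11, -0.07 and 0.07 in these regions. That of the 42 lower genes was 0.10, 0.05 and -0.17. Both medians thus had their brainstem direction in striatum and the opposite one in cortex and cerebellum. The share of all genes with the same direction was not computed.

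Because 3 of 6 SCA3 but 2 of 8 wild-type brainstem libraries were high, the split also entered the comparison of genotypes. Without a term for it, 392 of 12372 genes (3.17%) differed between SCA3 and wild-type brainstem at an adjusted p below 0.05 (edgeR likelihood ratio test), 164 higher and 228 lower in SCA3. With the split as a covariate, 962 genes (7.78%) differed, 446 higher and 516 lower. All 392 were among the 962, and 570 were called only with the split. The low libraries alone, 6 wild-type against 3 SCA3, called 388 (3.14%), of which 349 were among the 962, and 98 among the 570. These comparisons share libraries. Cbln3 and Neurod1 were among the 388, higher in SCA3 by 2.91 and 1.41 (likelihood ratio test, adjusted p = 0.0251 and 0.0343). Neither was called with the split. Both were highest in SCA3 7267054, at 70.9 and 19.0 CPM. The standard error of the genotype difference was smaller with the split for 11210 of 12372 genes. The count with the split was 606 without SCA3 9083513, 627 without SCA3 9082853 and 636 without SCA3 7267054, the only SCA3 libraries of the low group, and the count in the low libraries alone was then 216, 229 and 184.

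Vash1, a tubulin-trimming enzyme, had the smallest adjusted p of the genes called only with the split. In the low group its wild-type libraries ran from 80.3 to 101 CPM and its SCA3 libraries were 128, 128 and 132 CPM. In the high group wild-type was 56.6 and 60.8 CPM, and SCA3 was 92.0, 86.3 and 84.1 CPM. Within each group all SCA3 libraries were above all wild-type libraries, while over all 14 the genotypes overlapped. The difference was 0.48 ± 0.06 with the split (adjusted p = 3.29e-12) and 0.32 ± 0.16 without it (adjusted p = 0.299).

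Tmprss5, a membrane serine protease, was 17.0 to 24.7 CPM in wild-type and 31.2 to 41.0 CPM in SCA3 within the low group, and 6.61 and 7.02 CPM in wild-type and 13.0 to 18 CPM in SCA3 within the high group. Its genotype difference was 0.82 ± 0.12 with the split and 0.43 ± 0.35 without. Nde1, a dynein regulator, and Fgd3, a guanine nucleotide exchange factor, were higher in SCA3 by 0.48 ± 0.08 and 0.50 ± 0.08 with the split. The transcript 2900052N01Rik was lower in SCA3 by 1.12 on the log2 scale, with 17.4 to 19.9 CPM in low SCA3 libraries against 24.4 to 63.8 CPM in low wild-type libraries.

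**Figure D5:**
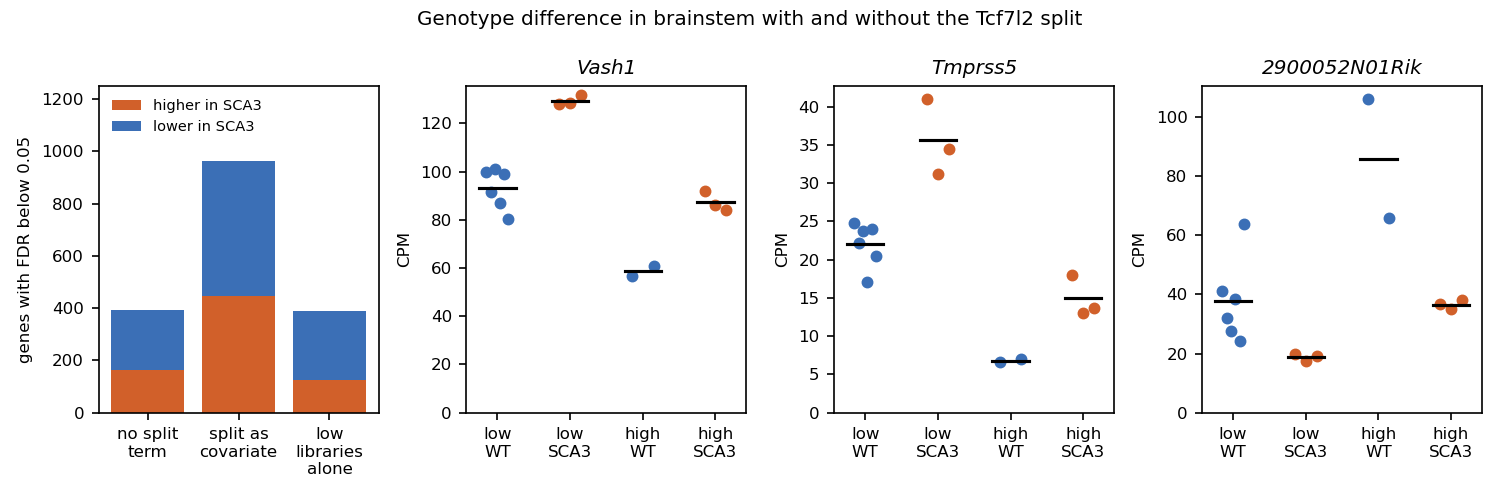
Left, number of genes with an adjusted p below 0.05 between SCA3 and wild-type brainstem, higher (orange) and lower (blue) in SCA3, without the split, with it, and in the low libraries alone (392, 962 and 388 genes). Right, CPM of Vash1, Tmprss5 and 2900052N01Rik in each brainstem library by group and genotype, with black lines at the means, where the genotypes separate within each group and overlap across groups.

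With the genotypes unequally divided between the groups, genes chosen for their difference between high and low libraries had to shift their genotype difference when the split was added, so their values are a description. Without the split, 28 of the 34 higher genes were above 0 in SCA3 with a median of 0.16, and 40 of the 42 lower genes were below 0 with a median of -0.29. With it, 4 of the 34 were above 0 (median -0.20) and 20 of the 42 below 0 (median 0.01). None of the 76 was called without the split and 6 were called with it (7.78% of all genes were). Klk6 (lower by 0.83 in SCA3, adjusted p = 6.26e-05), Mfge8, Cpne5 and Shisa9 were lower, and S100b and Car14 were higher in SCA3. These 6 were named after their values were seen. Of the oligodendrocyte list, 7 of 15 genes were called with and 5 without the split, and the 7 were all lower in SCA3. Of the thalamic list 1 of 14 was called with the split, and of the midbrain lists none.

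Whether the genotype difference itself changed between high and low libraries was tested by an interaction term. It was called for 0 of 12372 genes (0.0%), with 234 at an unadjusted p below 0.05, and DESeq2 and the quasi-likelihood test also called 0. The smallest adjusted p was 0.229, which the cerebellar markers Car8, Cbln3 and Neurod1 shared. Without wild-type 7267055 it called 13, with 1 high wild-type library left, and without wild-type 9083371, wild-type 9083375, SCA3 7267054 or SCA3 9083513 it called 3, 2, 3 and 4.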

How the data were processed

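The authors dissected each region, used about 30 mg of tissue for RNA, captured poly-A RNA with a kit that keeps no strand and sequenced paired reads. Per the labels and the methods of the study, reads were trimmed with cutadapt (1.10), aligned to GRCm38 (mm10) with STAR (2.3.0e) and counted per gene with HTSeq (0.6.1). The deposited values are raw counts of 12372 genes averaging over 4 CPM. Libraries were taken from their labels, and brainstem libraries were split at 50 CPM of Tcf7l2.

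Counts were fitted with edgeR (4.0.16, R 4.3.3; TMM factors and the likelihood ratio test, after the authors' use of edgeR) in each region's own libraries, with Benjamini-Hochberg adjustment over all 12372 genes. CPM values are counts over the library total. High and low brainstem libraries were described by the fitted log2 fold change (genotype as covariate) and by whether their CPM overlapped, with no test, since the split came from these counts. Genotype was tested with the split as a covariate, in the low libraries alone and for an interaction, and other regions by the split of the mouse. The procedure was tested on simulated counts first. Sample measures were compared by exact permutation tests (Python 3, scipy), as mean ± SD.

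Genes named are the 15 largest differences each way without overlap, all measured thalamic markers, the 5 genes with the smallest adjusted p called only with the split, genes called in other regions and list members with large differences or no overlap. None was called only without the split. Genes, lists and the split were chosen with earlier results of these data known. Normalization, filters, tools, covariates, limits of 25 and 100 CPM and single left-out libraries were tried as alternatives. Overlapping genes cannot be separated without strand. Positions and promoters are from RefSeq. Some results are not reported here.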

Additional observations from a re-analysis of the deposited data

Results flagged for a closer look

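Of 94 groups of values examined for a library far from the rest of its group (30 genes, 14 thalamic markers with Lef1 in both sets, and the sample measures), 11 held one. The critical value used marks about 1 in 20 independent groups by chance, and these groups share libraries. Wild-type 9083375 stood far above the other 8 low libraries in Six3 (11.7 CPM), Cartpt (11.1 CPM), Asic4 (11.2 CPM), Doc2b (26.8 CPM), Sertm1 (14.2 CPM) and Slc7a3 (21.0 CPM), and far below them in Ramp3 (0.780 CPM). The other low libraries held at most 7.92 CPM of Cartpt and at most 7.77 CPM of Sertm1. Wild-type 7267059 stood far above the low group in Synpo2 (18 CPM) and Rgs16 (12.0 CPM), and its RIN of 6.3 was far below that of the other low libraries. Wild-type 9083373 stood far above the other high libraries in Car5b (5.97 CPM).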

How the results depend on the processing

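No paired analysis was possible because each mouse gave 1 brainstem library and has 1 genotype and 1 group, so that no mouse number is shared between the groups compared. The 76 genes at least 2-fold apart without overlap became 153 in wild-type and 157 in SCA3 libraries alone, where fewer libraries have to be apart, and 74 to 145 when 1 library was left out (145 without wild-type 9083375). The other settings stayed within 1.5 times. The genotype count with the split (962) was 392 without the split, 552 with the mean of the thalamic markers in its place and 242 in 1 fit of all 53 libraries, and 606 to 1164 with 1 library left out. This count was 692 with RIN as a covariate, 696 by the quasi-likelihood test, 796 by limma-voom and 1292 by DESeq2. In the low libraries alone (388) it was 190 by the quasi-likelihood test, 617 by DESeq2 and 184 to 546 with 1 library left out. The interaction (0) gave 0 to 13 with 1 library left out. Cortex (0) gave 1 by DESeq2 and 0 to 4 with 1 mouse left out, cerebellum (1) gave 0 by the quasi-likelihood test and 0 to 3, and striatum gave 0 throughout. The RIN difference (0.387) ranged from 0.258 to 0.542 with 1 library left out, bodyweight from -6.75 to -2.76 g, age from -0.90 to -0.525 weeks and library totals from 5.30 to 13.6 M counts. The cause of these changes was not tested. For single genes, 1090 of 1127 values under an alternative kept their direction and their call or moved by less than the spread between libraries, 16 moved by more than that spread and 21 lost their call. The fitted log2 value of Six3 was 2.66 at a limit of 100 CPM, 3.84 without the genotype term and 10.1 without wild-type 9083375.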

Other observations

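The brainstem libraries differed among themselves in ways that the split at 50 CPM does not carry. Low library wild-type 9083375 exceeded every high library in 5 of the 7 measured dopamine-neuron genes, Th (136 CPM), Ddc (154 CPM), Slc18a2 (226 CPM), Aldh1a1 (342 CPM) and Ret (201 CPM). It did not in Nr4a2 (21.5 CPM, against up to 36.2 CPM) or Drd2 (24.9 CPM, against up to 27.8 CPM), and its Tfap2b (3.26 CPM) was below every other library.

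Over the promoter windows, the 250 bases before the start had a median GC content of 64.0% for the 23 higher and 56.0% for the 27 lower 2-fold genes with a window, beside 60.4% for all 9473 genes with one. This was computed after the values were seen and was not tested.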
